A study of Mus musculus with 45 samples.

Results

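High-level amplified DNA was followed across 45 mouse mammary tumors examined by array comparative genomic hybridization (CGH), in which tumor DNA and reference DNA compete for the same probes and the log2 ratio of their signals reports relative copy number. An autosomal probe was counted as amplified (a member probe) when the median of the log2 ratios of 5 consecutive probes centred on it, referred to below as the running median, was at least 1 in 1 or more tumors, which is a 2-fold excess over the autosomal median of the array. Of 40666 autosomal probes, 3117 met this rule, and merging neighbouring amplified probes gave 477 amplicons. These values chose the probes and amplicons, so counts, lengths and peaks are descriptions without a test. Of the 40590 probes with a running median, 7.68% were amplified in this sense, and 2.19% reached -1 or less.

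The tumors came from 8 genetically engineered models. The labels give BRCA1fl/fl;p53+/-;MMTV-cre (here BRCA1-/-;p53+/-, n = 5), MMTV-c-Myc (n = 5), C3(1)/SV40 T/t-antigens (C3(1)-Tag, n = 5), MMTV-Her2/neu (n = 5), MMTV-H-Ras (MMTV-HRas, n = 5), p53fl/fl ;MMTV-cre transplant (p53-/-, n = 6), MMTV-PyMT (n = 9) and MMTV-Wnt1 (n = 5), with 1 array per tumor. The MMTV promoter, a viral promoter active mainly in mammary epithelium, drives either the transgene or the cre recombinase that removes the floxed gene, and C3(1) is a prostatein promoter fragment. Neither the age nor the strain of an animal is in the labels. The BRCA1-/- tumors also carry 1 mutant p53 allele, the p53-/- tumors grew as transplants, and the reference was pooled mouse spleen by the labels, which elsewhere describe the same channel as pooled normal mammary.

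Gene amplification adds many copies of a short chromosome segment, in tandem or on extrachromosomal elements, and tumors that gain an advantage from one gene of the segment usually carry its neighbours as passengers. In mammary tumors, receptor tyrosine kinases, Ras proteins, cyclins with their kinases, and inhibitors of apoptosis are classical drivers of amplicons. The borders of amplicons in different tumors differ, and the segment they share is the usual guide to the gene that mattered. CGH gives neither the number of copies per cell nor their location, and admixed normal cells lower a ratio, so that fewer tumor cells and fewer extra copies cannot be told apart.

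The direction of the ratio had to be settled first, because the labels assign Cy5 to the tumor whereas in all values here Cy3 stands for the tumor and Cy5 for the reference. In that direction the mean of the probes named Brca1 was between -2.49 and -1.69 in the 4 BRCA1-/-;p53+/- tumors with a value (tumor Brcap53_682 had none) (the gene is deleted in these mice), and the Wnt1 probe stood at 1.07 or more in 4 of 5 MMTV-Wnt1 tumors and at 0.07 in tumor Wnt_4635. The authors deposited 5412 intervals, and 5174 of them could be compared with the probe values, of which 5145 (99.4%) had the same sign as Cy3 over Cy5. Among those with at least 3 probes and a mean log2 ratio of at least 0.2 in size it was 741 of 755 (98.1%), and the majority of these in 45 of 45 arrays. With the dyes as labelled, every gain described here is a loss, and the same rule then gives 887 probes and 254 amplicons.

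Several arrays resembled each other across models. C3TAg_7RPT and H2N61, a C3(1)-Tag and an MMTV-Her2/neu tumor by their labels, had a correlation of running medians of 0.85 over the autosomes and shared 343 amplified probes, 96.1% of the 357 of the first and 99.1% of the 346 of the second. C3TAg_8_RPT and H2NA shared 156, 97.5% of 160 and 98.1% of 159 (r = 0.66), and C3TAg_5RPT and H2N53, with no amplified probe, had r = 0.89. Neither slide nor scan day was shared within these pairs. The p53-/- tumors P53_2979 and P53_5809 (r = 0.75) shared 168 of 345 and 577 amplified probes, and PyMT_11567 and PyMT_11570, on 1 slide, had r = 0.72. The other 985 pairs ranged from -0.27 to 0.80 with a median of 0.09, and the highest among them were H2N1 with H2N53 (0.80) and H2N1 with C3TAg_5RPT (0.79), again a pair across models. The basis of these resemblances was not tested. Without C3TAg_5RPT, C3TAg_7RPT and C3TAg_8_RPT, 476 of the amplicons were left. Probe noise, the SD estimated from neighbouring probes, was 0.158 to 0.476 per array (median 0.234), and 2.02 to 28.8% of probes were missing, most in Brcap53_682.

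The array has no probe sequence in the files used here and its build is mm8, so the sequences that can be shown are microRNAs whose genes lie between 2 neighbouring genes of an amplicon. The amplicons with a peak of 2 or more and at least 5 amplified probes enclosed 32 microRNA genes in this sense, by gene order in RefSeq on GRCm38.p6; 11 of them lay in the distal chromosome 11 amplicon and none in the amplicon over Met. No probe measured a microRNA gene itself. The 8 mature sequences below mark the amplicons on chromosomes 6, 7, 9, 10 and 11 that are described next, with capitals for the seed (bases 2 to 8), the stretch by which a microRNA mainly recognizes its targets.
mmu-miR-490-3p: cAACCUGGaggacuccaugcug
mmu-miR-202-3p: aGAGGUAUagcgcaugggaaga
mmu-miR-210-3p: cUGUGCGUgugacagcggcuga
mmu-miR-1899: aGCGAUGGccgaaucugcuucc
mmu-miR-677-5p: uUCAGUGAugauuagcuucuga
mmu-miR-3064-5p: uCUGGCUGuuguggugugcaaa
mmu-miR-338-3p: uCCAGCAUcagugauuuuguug
mmu-miR-3065-5p: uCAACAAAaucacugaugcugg
The first lies between Chrm2 and Ptn in an amplicon of tumor P53_8546. miR-202 (between Utf1 and Spef1l) and miR-210 (between Rassf7 and Irf7), the second of which is known as a hypoxia-induced microRNA, belong to the segment with Hras1 in PyMt341. miR-1899 lies beside Trpc6 in Wnt_4635, miR-677 between Atp5b and Baz2a in Myc_04004021, and miR-3064 beside Ddx5 in Myc_04005648. miR-338 and miR-3065 share 1 locus between Aatk and Cep131 on distal chromosome 11. The 8 printed seeds are all different.

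Amplicons were found in 36 of 45 tumors (80%), and the tumors without any were 2 of 5 MMTV-Myc, 2 of 5 C3(1)-Tag, 2 of 5 MMTV-Her2/neu, 1 of 5 MMTV-HRas and 2 of 9 MMTV-PyMT tumors. The median number of amplified probes per tumor was highest in p53-/- tumors, at 148 (lowest 91, highest 577). Of the probes with a running median, 0.338% were amplified in P53_1573, 0.85% in P53_2979, 1.42% in P53_5809, 0.224% in P53_5817, 0.392% in P53_5851 and 0.328% in P53_8546. BRCA1-/-;p53+/- tumors had a median of 78, with shares of 0.0296% in Brcap53_503, 0.792% in Brcap53_682, 0.522% in Brca_14, 0.138% in Brca_42 and 0.192% in Brca_54. All tumors of these 2 models and of MMTV-Wnt1 had at least 1 amplicon. In MMTV-Wnt1 the median was 20, with 0.352% in Wnt_4635 and 0.0493%, 0.00739%, 0.0222% and 0.0542% in Wnt_4675, Wnt_4676, Wnt_4677 and Wnt_4679.

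In the other models the median was lower and 1 or 2 tumors were far above it. MMTV-Myc tumors ranged from 0 to 669 amplified probes (median 7), with 1.65% in Myc_04004021, 0.626% in Myc_04005648 and 0.0173% in Myc_043508. C3(1)-Tag tumors ranged from 0 to 357 (median 4), with 0.00986% in C3TAg2, 0.88% in C3TAg_7RPT and 0.394% in C3TAg_8_RPT. MMTV-Her2/neu tumors ranged from 0 to 346 (median 1), with 0.853% in H2N61, 0.392% in H2NA and 0.00246% in H2N64. Each of these models thus had at most 2 tumors above 0.3%. MMTV-HRas tumors ranged from 0 to 231 (median 15), with 0.175%, 0.0371%, 0.57% and 0.0148% in Hras_An1_3, Hras_An2_3, Hras_An3_3 and Hras_An4_3. MMTV-PyMT tumors ranged from 0 to 190 (median 5), with 0.468% in PyMt341, 0.0123% in PyMt3, 0.0345% in PyMt342, 0.0148% in PyMT_11567, 0.037% in PyMT_11570 and 0.00246% each in PyMt4_1 and PyMt435. The ranges of all 8 models overlapped.

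Most amplicons, as cut by the threshold, were short and shallow. The median amplicon had 3 amplified probes and 48.3 kb between the first and the last of them (0.047 to 13953.6 kb), with neighbouring probes a median of 21.5 kb apart on the array. Its peak, the highest running median in any tumor, was 1.16. Peaks were below 1.2 in 288 amplicons, at least 1.5 in 67, at least 2 in 30, at least 3 in 12 and at least 5 in 4. The probes nearest to the threshold stood at 1.00009 inside and 0.999893 outside, with 446 amplified probes at most 0.05 above it and 694 other probes at most 0.05 below it. A cut at 1 therefore divides a continuous run of values. The median of the flanking probes was below 0.2 in 102 of 477 amplicons, and the peak stood at least 1 above it in 126. The lengths are those of stretches above the threshold, and a broader gain can be cut into several. The number 477 is therefore not a count of separate focal amplifications. Amplified probes were spread unevenly over the autosomes, with 788 on chromosome 6 (32.9% of its probes), 474 on chromosome 11 (15.9%) and 298 on chromosome 10 (14.7%), against 9 on chromosome 13 (0.541%). Of 20093 gene names on autosomal probes, 8.61% had an amplified probe. Of 64 cancer genes known from amplicons of tumors that had a probe, 19 did.

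Of the 477 amplicons, 321 were in 1 tumor, 78 were in several tumors of 1 model and 78 were in 2 or more models, and 16 were in 5 or more tumors. P53_2979 and P53_5809 accounted for many: 209 amplicons were in these tumors alone. Their arrays were among the noisiest (probe noise 0.449 and 0.476), the part of which in these calls was not tested, and without both tumors 272 amplicons were left, 70 of them in 2 or more tumors instead of 156. The number in 2 or more tumors was also 156 without the 3 C3(1)-Tag arrays that resembled MMTV-Her2/neu arrays. Brcap53_682, the array with 28.8% of probes missing, alone held 43 amplicons, of which the 9 with at least 10 amplified probes were all on chromosome 2, with peaks of 1.06 to 1.30.

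**Figure D1:**
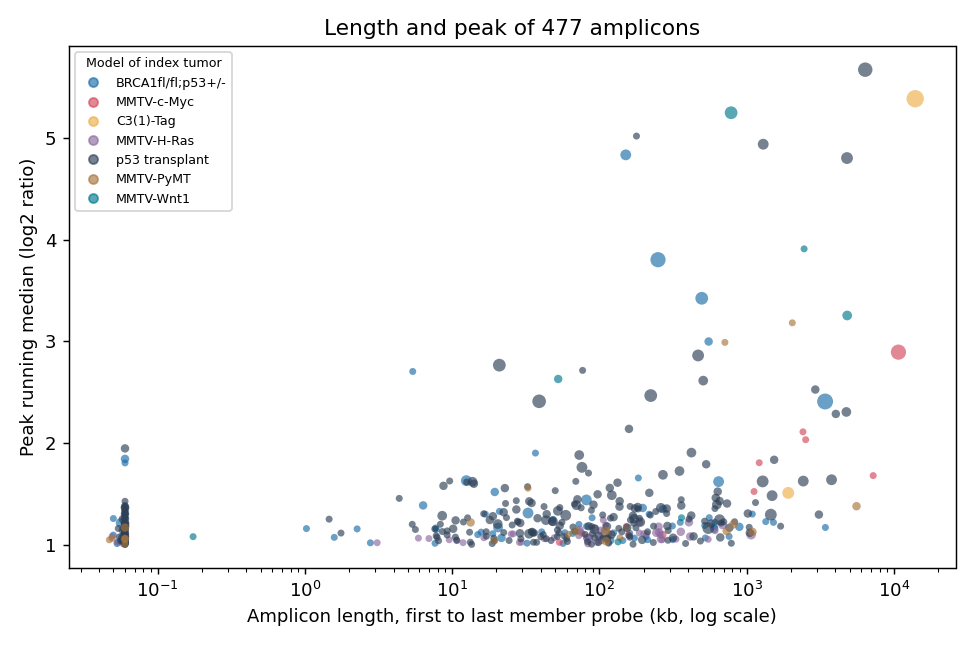
Length of the 477 amplicons from first to last amplified probe (kb, log axis) against their peak running median (log2 ratio), coloured by the model of the tumor with the peak, with larger points for amplicons in more tumors. Most points lie below 1.2, and the 12 amplicons that reach 3 range from 151 to 13953.6 kb.

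The 30 amplicons with a peak of 2 or more differed when the 5 probes behind each peak were read singly, which the rule on the median did not fix. In 15 of them every measured probe of the window was at least 1, and those were also segments of 5 or more amplified probes. In 13 of 30 the window held a probe below 0.5 beside a probe of 2 or more, for instance 0.03, 0.32, 5.88 and 4.91 at Cd200r4. BC003993 and Dnajc17 were in neither class. Peaks of 2 or more stood at least 1 above the median of the flanking probes in 30 of 30 amplicons, compared with 96 of 447 lower ones. A higher peak meets this more easily, so the contrast follows in part from the sorting by height. The flank itself was below 0.2 in 18 of 30 and in 84 of 447. Where the peak came from was also visible in the single channels. The Cy3 signal, after centring on the median of all tumors, was higher by 1 or more in 28 of 30, and the Cy5 signal stayed within 0.5 in 26 of 30. Cy5 fell by 1 or more at 3 peaks, with -1.18 at A430090E18Rik, -1.34 at Car12 and -1.44 at Stc2, and by 0.98 at Klra22. At Car12, Stc2 and Klra22, all in BRCA1-/-;p53+/- tumors, the Cy5 fall was larger than the Cy3 rise. No amplified value of 4 or more came from a saturated spot (0 of 332).

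**Figure D2:**
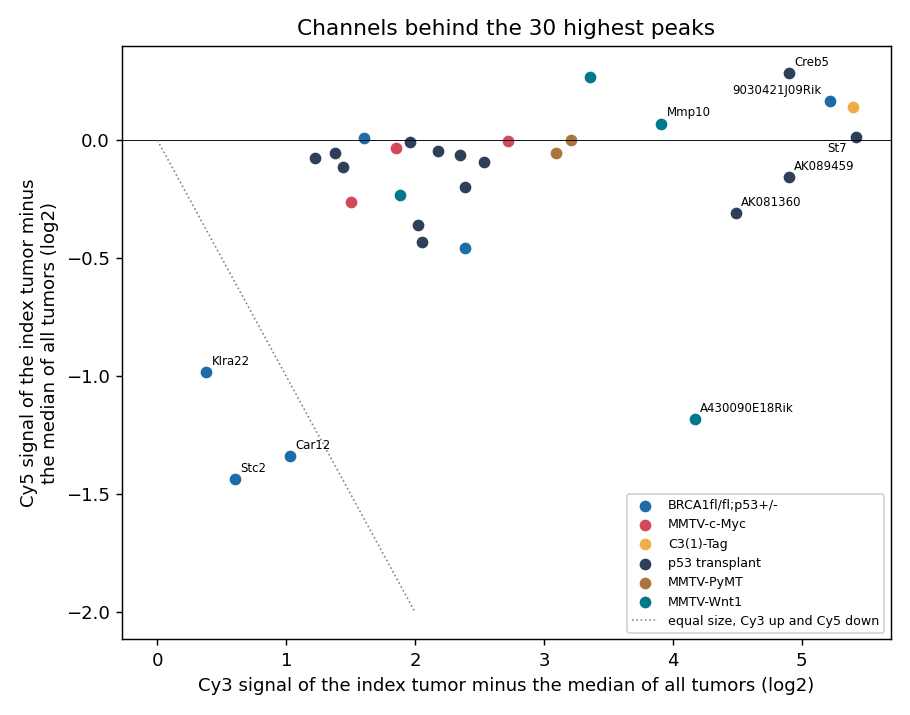
Shift of the Cy3 signal (x axis) and the Cy5 signal (y axis) of the tumor with the peak from the median of all tumors (log2), for the 30 amplicons with a peak of 2 or more, coloured by model. Most points lie along the line at 0 on the y axis with Cy3 up to 5.42, whereas Klra22, Car12 and Stc2 lie left with Cy5 at -0.98 to -1.44.

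The longer segments are described first, by gene. The highest of all was over Met, the receptor tyrosine kinase for hepatocyte growth factor, on proximal chromosome 6 (15327864 to 21715018, mm8, 50 amplified probes). Its peak was 5.68, at the tumor suppressor candidate St7 in P53_5817. Running medians at the Met probes reached 1 in 6 tumors, 4 of 6 p53-/- (P53_1573, P53_5817, P53_5851 and P53_8546), 1 of 5 BRCA1-/-;p53+/- (Brca_14) and 1 of 5 MMTV-Wnt1 tumors (Wnt_4635). P53_2979 and Hras_An3_3 reached 1 at single probes only.

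Each of the 6 tumors had its own borders. In Brca_14 the amplified run spanned 2.62 Mb from Foxp2 to the first probe of Wnt2, and single probes dropped between the 2 probes of St7, from 4.83 to 1.34. In P53_1573 the 3 probes of Cav1, the caveolin-1 gene, and BC067060 stood at 0.53 to 0.65, the first Met probe had no value and the second stood at 4.63, and the run continued for 3.95 Mb. P53_8546 had the shortest run, of 0.77 Mb and 16 probes. It was high from Cav1 on (5.30), with B930018B01 before it at 0.29 and Cav2 between them without a value, and fell within Asz1, from 4.16 to 0.11. P53_5817 and P53_5851 had longer runs, of 44 probes each. In Wnt_4635 the run covered 3.40 Mb at a lower height, with a peak of 2.14. The stretch shared by all 6 was 505 kb (17442331 to 17947807, 10 probes). It holds Met, the actin-capping protein gene Capza2, St7 and the first probe of Wnt2, a Wnt ligand, with the transcripts AK145182 and AK045027. Cav1, Cav2 and Cftr, the chloride channel mutated in cystic fibrosis, lay outside it.

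**Figure D3:**
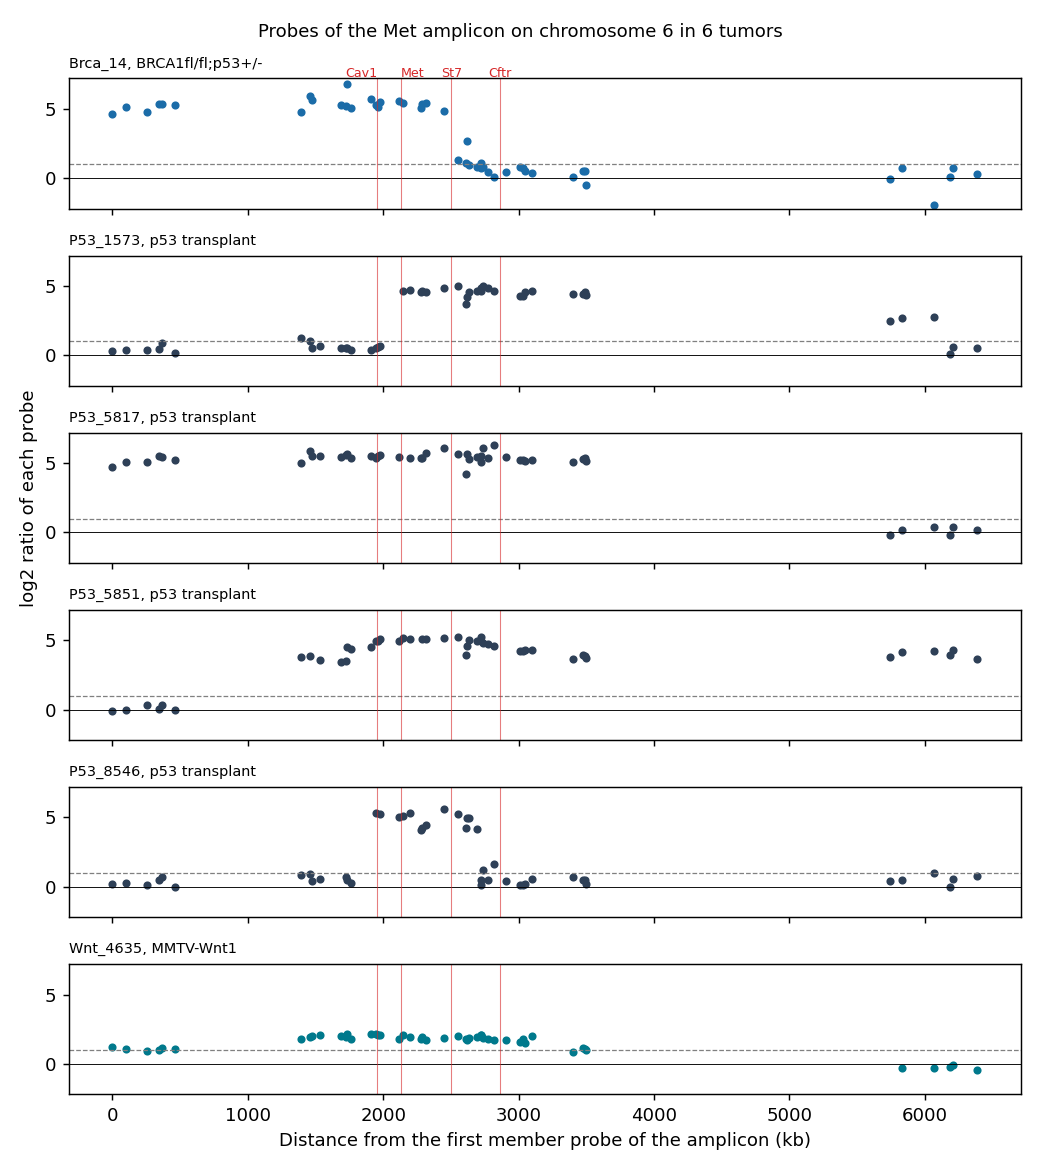
Log2 ratio of each probe (y axis) against the distance from the first amplified probe of the Met amplicon (x axis, kb), 1 panel per tumor, with the positions of Cav1, Met, St7 and Cftr as red lines and the threshold of 1 dashed. The raised segments start and end at different probes in the 6 tumors, all 6 are raised at the line of Met, and Wnt_4635 sits near 2 where the others sit near 5.

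Because the peak was chosen from P53_5817, the index tumor of this amplicon, the p53-/- model was compared at the peak probe without that tumor. The 5 remaining p53-/- tumors had a mean running median of 3.33 against 0.28 in the other 7 models, a difference of 3.05 ± 0.36 (SE), and passed the test (limma, adjusted p = 4.82e-07), as did 3.59% of all probes in the same fit. Within the 2 scan days that held both p53-/- and other tumors, the difference was 3.39 and 2.76. Over the run of P53_5817, the median log2 ratio of all p53-/- tumors ranged from 0.36 (P53_5809) to 5.40, and P53_2979, at 0.40, was also low. P53_8546 stood at 0.67 there, because its short run covers only part of these probes. The 13 of 14 listed genes around Met with an amplified probe each had their highest value in P53_5817 or Brca_14, and Ppp1r3a, which had none, did not exceed 0.71 in any tumor.

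P53_8546 carried 3 more segments of the same height on chromosome 6, each with flanks below 0.5. The first held Chrm2, a muscarinic acetylcholine receptor, and Ptn, the growth factor pleiotrophin (36375629 to 37161516, 12 probes, peak 4.81). The second was at Mpp6 and Dfna5h (50032007 to 50210558, 7 probes, 5.02), and the third at Creb5, a cyclic AMP response element binding protein (6 probes, 0.272 Mb, 4.94). Brca_14 had lower runs near the first (highest peak 1.56), where Hras_An3_3, P53_2979 and P53_5809 also reached 1. No other tumor had an amplified probe in the second. Hras_An1_3 had a lower run across the third (7 probes, peak 1.18). Of the 3 peaks, Creb5 alone was higher in the remaining p53-/- tumors, at 0.49 against 0.12 (limma, adjusted p = 0.0364, with 3.5% of all probes called). This call, a difference of 0.38, was lost without P53_2979 (adjusted p = 0.166), without P53_5809 (0.24), without both (0.572), without C3TAg_5RPT and C3TAg_7RPT (0.0501) and with scan day as a random block (0.0569). It was also lost with loess normalization (0.0804), normexp background correction (difference 0.23, adjusted p = 0.144) and windows of 3 probes (0.0868) or 9 probes (difference 0.18, adjusted p = 0.306). In P53_1573 the Met run was followed by a lower one over Slc13a1 and Wasl, an activator of actin assembly (22872380 to 25797893, 48 probes, peak 2.53).

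On chromosome 6, C3TAg_7RPT and H2N61 shared a run over Ccnd2, the gene of cyclin D2, and Foxm1, a transcription factor of the G2 phase, with peaks of 1.61 and 1.58 and 109 and 112 probes. Ccnd2 itself reached 1.14, and without these 2 arrays it was amplified in no tumor.

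Hras1, the gene of a Ras GTPase, was amplified in PyMt341. This MMTV-PyMT tumor had 2 neighbouring segments on chromosome 7, at 139088198 to 141129697 (108 probes, peak 3.18 at the cytochrome gene Cyp2e1) and 141483295 to 142194883 (32 probes, peak 2.99 at Tollip), and Hras1, in the first, stood at 2.76. The flanks were at -0.04 and -0.06, and no other tumor had an amplified probe in either. The 8 remaining MMTV-PyMT tumors were at 0.02 at the first peak against -0.05 in the other models (limma, adjusted p = 0.838, with 0.0345% of all probes called). None of the 5 MMTV-HRas tumors had an amplified Hras1 probe.

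Wnt_4635, labelled MMTV-Wnt1 although its Wnt1 probe was at 0.07, had 143 amplified probes against 3 to 22 in the other tumors of that label. On chromosome 9 (6206468 to 8662583, 60 probes, peak 3.91) it had an amplicon of matrix metalloproteinases, which degrade extracellular matrix, beside the apoptosis inhibitor Birc3 and Yap1, the transcriptional coactivator of the Hippo pathway. Heights stepped along the segment. Pdgfd, at one end, stood at 1.25, Dync2h1 at 2.45 and Dcun1d5 at 3.49. The metalloproteinases Mmp13, Mmp12, Mmp10 and Mmp8 were highest at 3.90, 3.96, 3.87 and 3.96, with Mmp3 at 3.54, and Mmp20 and Mmp7 at 2.46 and 2.87. Birc3 (2.55), Yap1 (2.49) and Trpc6 (1.99) followed, and Pgr, the progesterone receptor gene beyond the end, was at 0.64 and was not amplified. Of the 15 genes with a probe that were listed for this neighbourhood, 13 were amplified, in this tumor alone, and the others were Pgr and Mmp2, which lies on chromosome 8. The remaining MMTV-Wnt1 tumors were at 0.05 against -0.01 at the peak (limma, adjusted p = 0.915, with 0.0123% of all probes called). The same tumor had a run of 7 probes at Spata16 on chromosome 3 (0.747 Mb, peak 3.26), one at AK018566 on chromosome 12 (17 probes, 1.26) and the Met run.

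In MMTV-Myc tumors, the amplicons with more than 6 amplified probes lay on chromosomes 10 and 11, with shorter ones of Myc_04004021 on chromosomes 3 and 14. Myc_04004021 had 5 segments along chromosome 10 found in no other tumor. They peaked at 1.52 (Ppp1r12a, 16 probes), at 1.81 in a segment with the fibroblast growth factor adaptor Frs2 and Mdm2, the ubiquitin ligase of p53 (35 probes), at 1.68 in one with Cdk4, the partner kinase of D cyclins, and Ddit3 (102 probes), at 1.18 (Nab2, 8 probes), and at 2.03 in one with the receptor Erbb3 (132 probes). Cdk4 stood at 1.58, Ddit3 at 1.78, Mdm2 at 1.02 and Erbb3 at 1.03. The flank of the last segment was at 1.01, so these peaks stood on a broad gain. This array had a probe noise of 0.443, against 0.173 to 0.222 in the other MMTV-Myc tumors.

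On distal chromosome 11 an amplicon of 362 probes (110797575 to 121532366) was found in 9 tumors. In Myc_04004021 it was 1 run of 9.05 Mb with a peak of 2.62, and in Myc_04005648 it fell into 3 runs with peaks of 2.90, 2.05 and 1.99, the first beside the transcription factor gene Sox9. Over the index run the 5 MMTV-Myc tumors stood at 1.96, 0.45, 1.71, 0.82 and 0.01. The study picked genes of this region on these tumors, so their count is not independent evidence. All 6 with a probe were amplified, namely the thymidine kinase Tk1 (highest value 1.82), the survivin gene Birc5 (2.49), Jmjd6, a hydroxylase gene named Ptdsr on the array (2.05), Fbf1 (2.34), Sumo2 (1.79) and Ube2o (1.72), each in Myc_04004021, Myc_04005648 or both. The stretch amplified in most tumors, 6 of 9, was 3 probes at AK155119 (116570620 to 116571580), where 4 BRCA1-/-;p53+/- tumors peaked at 1.62 to 2.34. Of these, Brca_14 had a further run of 32 probes at Aspscr1. Without Myc_04005648 the MMTV-Myc tumors were at 0.75 against 0.02 at the peak (limma, adjusted p = 0.00411, with 0.981% of all probes called). Without Myc_04004021 as well, the difference was 0.36 (adjusted p = 1.00). Within the 2 scan days with both MMTV-Myc and other tumors, the differences were 0.36 (3 MMTV-Myc tumors) and 1.90 (Myc_04004021 alone), and within 4 slides with 1 MMTV-Myc tumor each they were -0.02, 0.65, 1.76 and 0.33. Myc_04005648 also had a segment further up at 105729534 to 108142323 (85 probes, peak 2.11).

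P53_5851 had 2 segments on chromosome 15, over the transcriptional repressor gene Trps1 (47528235 to 51561502, 9 probes, 2.29) and from beside Ext1 on (53224283 to 57978535, 66 probes in 2 runs, peaks 2.31 and 2.17). The Ext1 probes in the window of the first peak read 0.37 and 0.23 themselves, and the raised probes, at 2.31 to 2.49, lay on the Samd12 side. The Myc probe lies beyond both, and its running median was 0.21 in this tumor. Myc is covered by 1 probe, so it could not meet the rule on its own, but its single log2 ratio was 5.80 in P53_5851, 3.34 in PyMt435, 2.59 in PyMt427, 2.56 in PyMt342 and 1.78 in PyMt341. MMTV-c-Myc tumors had no value above 1.00 there.

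The remaining high peaks were short, lay in or beside gene families with near-identical members, or had mixed probe values. Of the 30 peaks of 2 or more, 7 (23.3%) lay in amplicons with a listed member of a gene family. Among lower ones it was 30 of 447 (6.71%), and among all 37 of 477 (7.76%). The 30 amplicons were also longer, with a median of 12.5 amplified probes against 3 for all, and longer amplicons hold more genes. By probe, 126 of 3117 amplified probes (4.04%) were of a listed family, near the 1322 of 40666 autosomal probes (3.25%). The part of similar sequences in these values was not tested. The tallest was in the Skint-type genes around A430090E18Rik on chromosome 4 (111482045 to 112266249, 15 probes). Its peaks were 5.25 in Wnt_4679, 4.57 in Wnt_4635 and 3.84 in Wnt_4675, and the median ratio over the segment was -0.11 and 0.02 in the other 2 MMTV-Wnt1 tumors. All other tumors but P53_5817 (0.78) were at or below 0.45. The test of the remaining MMTV-Wnt1 tumors gave 1.70 against -0.05 and did not pass (limma, adjusted p = 0.216, with 0.0123% of all probes called). It passed without either of the low MMTV-Wnt1 tumors, Wnt_4676 (difference 2.66, adjusted p = 2.3e-05) or Wnt_4677 (2.33, adjusted p = 0.00695), and with a window of 9 probes (1.79, adjusted p = 0.0124).

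At Mrgprb8, one of the Mas-related receptors of sensory neurons and mast cells (chromosome 7, 48066915 to 48316952), 5 of 5 BRCA1-/-;p53+/- and 4 of 6 p53-/- tumors reached 1. Over the run of Brca_14 the BRCA1-/-;p53+/- tumors stood at 1.33, 1.12, 2.85, 2.97 and 3.24, and P53_1573, P53_5817, P53_5851 and P53_8546 at 1.67, 1.83, 1.70 and 0.93. P53_2979 and P53_5809 were at -0.65 and -0.27, and no tumor of another model exceeded 0.41. Without Brca_14 the BRCA1-/-;p53+/- tumors were at 2.86 against 0.07 (difference 2.79 ± 0.25 SE, limma, adjusted p = 1.40e-10, with 0.138% of all probes called). The exact rank sum test did not pass after adjustment (adjusted p = 0.215). With few remaining tumors its smallest possible p-value is bounded before adjustment over all probes, so that result alone decides little. In Brca_14 the shift over the run was 1.09 in Cy3 and -1.60 in Cy5.

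At 9030421J09Rik beside Apol3, an apolipoprotein L gene (chromosome 15, 77216592 to 77367588), 4 BRCA1-/-;p53+/- tumors stood at 3.48, 5.10, 4.66 and 4.90 and Brcap53_682 at -0.37. The 2 tumors PyMT_11567 and PyMT_11570 went the other way, at -3.32 and -3.53. The remaining BRCA1-/-;p53+/- tumors were at 2.44 against -0.11 (limma, adjusted p = 8.07e-06; exact rank sum test, adjusted p = 0.256). With a window of 9 probes the difference was 0.28 instead of 2.56 and did not pass (limma, adjusted p = 0.257). BRCA1-/-;p53+/- tumors shared their scan days with no other model, so that model and scan day cannot be told apart here or at Mrgprb8.

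Cd200r4, a member of the CD200 receptor family of myeloid cells (chromosome 16), also had tumors far above and far below 0. P53_1573, P53_5817, P53_5851 and P53_8546 stood at 5.39, 6.15, 5.30 and 4.49 over the 3 probes of the P53_1573 run, P53_2979 and P53_5809 at -0.02 and 0.51, and PyMT_11567, PyMT_11570 and Wnt_4679 at -4.04, -5.31 and -5.37. Those last 3 arrays lay on 1 slide. The remaining 36 tumors were between -0.45 and 1.67. The running median showed little of this, since the probes on one side of the peak were at 0.03 and 0.32 in P53_1573. It reached 1 in this amplicon in P53_1573, P53_2979 and P53_5809 only, and the test at the peak probe did not pass (limma, adjusted p = 0.0566, with 4.62% of all probes called). The difference of 0.56 passed at 0.52 with normexp background correction (adjusted p = 0.00101), at 0.38 on spots well above background (0.0101), at 0.51 with outlier spots kept (0.000573), at 0.52 without PyMT_11570 (0.000402), and at 3.48 with a window of 3 probes (0.000688).

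The same 4 p53-/- tumors were high at other short loci. At AK142592, in the interferon-inducible Ifi200 cluster of chromosome 1, P53_1573, P53_5817 and P53_8546 stood at 1.83, 1.60 and 1.98 and P53_5851 at 1.479, with Brcap53_682 and Brca_42 at 1.02 and 1.16 and all others at or below 0.46. The remaining p53-/- tumors were at 1.46 against -0.01 (limma, adjusted p = 0.000268, with 4.62% of all probes called; exact rank sum test, adjusted p = 0.0436). At Arl15 on chromosome 13 the amplicon peak of 2.86 was a probe that read 0.02 itself, between neighbours of 5.58 and 4.86 on one side and 0.70 and 2.86 on the other. Its call (difference 1.65, limma, adjusted p = 3.92e-05, with 5.81% of all probes called) was lost with a window of 3 probes (0.34, adjusted p = 0.0963) or 9 probes (0.15, adjusted p = 0.419), with normexp background correction (0.17, adjusted p = 0.328) and on spots well above background (0.27, adjusted p = 0.389).

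Klra22, in the Ly49 family of natural killer cell receptors on chromosome 6, was amplified in 8 tumors of 4 models at 2 probes, or in 6 tumors of 2 models without C3TAg_7RPT and H2N61. The running median was 2.41 in Brca_54, 2.34 in Brca_14 and 1.93 in Wnt_4677, but the Cy3 rise at the peak was 0.38 and the Cy5 fall 0.98. At Car12 beside Aph1b (chromosome 9) only 3 of 5 probes of the window had a value, of which 1 was at 0.03, and at Stc2 (chromosome 11) likewise 3, of which 1 was at 0.24. The other peaks of 2 or more, at AK153910 beside the class I gene H2-T3, BC003993, Dnajc17, Nudt6 and EG214403, were between 2.14 and 3.00 and had at most 5 amplified probes.

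Over all 477 amplicons, the peak was higher in the remaining tumors of the index tumor's model than in the other models for 57 and lower for none (limma, adjusted over all autosomal probes). The 57 fell to 34 without P53_5809, 36 without P53_2979 and 35 without both, and were 10 with a window of 9 probes and 147 with one of 3. By model the 57 were 49 of 284 with a p53-/- index tumor, where 1.65 to 5.81% of all probes passed in the same fits, 6 of 89 with a BRCA1-/-;p53+/- index tumor (0.138 to 1.86%, and 0.559% for Brcap53_682, the index tumor of 44), 1 of 12 for MMTV-Myc (0.527 to 0.981%) and 1 of 61 for MMTV-HRas (0 to 10.1%). None passed of 4 for C3(1)-Tag (0% of all probes), 20 for MMTV-PyMT (0 to 1.45%) and 7 for MMTV-Wnt1 (0.0123 to 0.0148%). Of the 30 highest peaks 9 passed, and those were Met, Creb5, distal chromosome 11 and 6 of the short loci. The amplicons over Hras1, the metalloproteinases with Yap1, Cdk4 and Mdm2 did not. The exact rank sum test called 11 of the peaks (84 of 397 at an unadjusted p below 0.05). Its smallest possible p-value is bounded by the few remaining tumors of a model, so that count is not directly comparable with the 57. Replicates were separate tumors by their labels.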

How the data were processed

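Genomic DNA of 45 mouse mammary tumors had been hybridized on 2-colour Agilent 44K arrays by the authors. Per the file headers, Agilent Feature Extraction 9.5.1.1 (10.7 in the labels) had subtracted the background and normalized the dyes, and the deposited files give processed and raw intensity of both channels and a log10 ratio of Cy5 over Cy3 per spot (mm8). The authors also deposited a table of called intervals with a mean log2 ratio per tumor and the number of probes, used here only for the dye direction. Its p-values and 8 filtered tables by model were not used.

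Control spots and outlier spots were left out and spots of a probe averaged. The log2 ratio, Cy3 over Cy5, had the autosomal median subtracted array by array, since copy number changes one way over long stretches, without loess or quantile steps. The running median took 5 probes with at least 3 values, and gaps of up to 5 probes within a chromosome were bridged when amplicons were merged. Flanks were 20 probes on each side. The index tumor of an amplicon has its highest running median. The test fitted all autosomal probes in the other 44 tumors with limma 3.58.1 (R 4.3.3), compared the index model with the mean of the other 7 and adjusted by Benjamini-Hochberg, with 0.05 as the limit. Python 3.11.15 with numpy 2.4.6 and pandas 2.3.3 did the rest. The scripts were tested on simulated data. Tumors were grouped by their labels, each 1 array, and whether animals were related is not given. The number of arrays and the signal, a median of 2.11 to 14.7 times background for Cy5 and 3.67 to 16.8 times for Cy3, limit the precision.

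The amplified probes and the gene lists were chosen with earlier results of these data known. The naming rule took the gene of the peak probe and listed genes of amplicons in 2 or more tumors, with a peak of 2 or more or with a cancer gene. The 156 amplicons in 2 or more tumors alone are too many to describe, so those described singly were chosen after their values were seen and the rest are given in counts. Some amplicons are not reported here. Gene names are those of the array, and 14684 of 20093 (73.1%) matched RefSeq. Alternatives changed the centring, background correction, normalization, dim and outlier spots, threshold, window, merging, dyes, test and the tumors used.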

Additional observations from a re-analysis of the deposited data

Results flagged for a closer look

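Of 22 groups of values screened for a single value far from the others, 4 held one. The counts of amplified probes among them come from the rule itself and lie near 0 in many tumors. The share that chance gives is therefore not known, and the flags are descriptions. PyMt341 had 190 amplified probes against 0 to 15 in the other MMTV-PyMT tumors, most of them in the Hras1 segments, and Wnt_4635 had 143 against 3 to 22 in the other MMTV-Wnt1 tumors. Probe noise was 0.336 in H2N64 against 0.170 to 0.209 in the other MMTV-Her2/neu arrays, and H2N64 had 1 amplified probe. It was 0.443 in Myc_04004021 against 0.173 to 0.222 in the other MMTV-Myc arrays, the tumor with 669 amplified probes, and the part of the noise in that number was not tested.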

How the results depend on the processing

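The number of tumors with an amplicon (36) stayed within 1.5 times under all alternatives run, from 24 to 43. The other counts followed the threshold and the window. A threshold of 0.8 gave 7525 amplified probes and 877 amplicons, 418 of them in 2 or more tumors, and one of 1.5 gave 1189, 86 and 22, with 15 peaks higher in the remaining tumors instead of 57. A window of 3 probes gave 4703 probes, 1034 amplicons, 521 in 2 or more tumors and 147 called peaks, and a window of 9 gave 165, 32 and 10 of the last 3. Bridging 20 probes left 295 amplicons. With the dyes as labelled there were 887 probes, 254 amplicons, 39 in 2 or more tumors and 11 called peaks, and that setting turns the sign of every single value. The exact rank sum test called 11. Alternatives chosen after seeing the data gave, without P53_2979 and P53_5809, 272 amplicons, 70 in 2 or more tumors and 35 called peaks, and, with at least 5 amplified probes in 1 tumor required, 107, 53 and 14. Leaving out each tumor in turn gave 2649 to 3117 probes, 367 to 477 amplicons, 35 to 36 tumors, 91 to 157 amplicons in 2 or more tumors and 34 to 80 called peaks, with the lowest of the last 2 without P53_5809 (91 and 34) and nearly as low without P53_2979 (101 and 36). Slide or scan day as a random block gave 51 and 45 called peaks.

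At AK153910 in the H2-T region of chromosome 17 the difference of the remaining p53-/- tumors, 1.14 in the deposited ratio, was -0.0824 with normexp background correction and -0.182 with a window of 9 probes, and with a window of 3 it was 0.05 and lost its call. Among single differences without a tumor left out, 498 kept direction and call, 18 lost the call, 9 gained it and 2 turned, and with 1 tumor left out 1302 kept it, 6 lost it and 12 gained it. Why was not tested. No paired analysis was possible because the labels carry no replicate numbers shared by the models, and slide and scan day entered only as random blocks and as within-batch values. Windows of 5 probes at a spacing of 21.5 kb miss amplicons of 1 or 2 probes, and dim spots, where Cy5 was near background, limit low ratios.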
